A study of Homo sapiens with 6 samples.

Results

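The proteasome degrades proteins that have been marked with ubiquitin, and its subunits and assembly chaperones were described here in U251 cells, an established human glioma line, after exposure to sevoflurane (Sev), a volatile anesthetic. The members were the protein-coding genes whose symbol begins with PSMA to PSMG followed by a digit, and the rule used no measured value. It found 50 genes among 19887 protein-coding genes and 61496 features in all. RNA was sequenced from 3 control libraries of untreated cells and 3 libraries of cells that had been under Sev gas for 2 h, 6 in all, and the study compared them to find genes whose expression Sev changed. All cells were grown in DMEM with fetal bovine serum. The labels list Sev at 1.7%, at 3.4% and at 5.1% without giving the concentration of each library, and a figure legend of the study describes the sequenced cells as those under the highest of these. The study describes its quantitative data in general as coming from independent experiments, but nothing says so of the libraries themselves, so p-values measure only the spread between these libraries. The cells were 1 line, and an RNA level from bulk cells cannot tell less RNA in every cell from fewer cells that hold the RNA.

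The 26S proteasome is made of a barrel, the 20S core, with a 19S cap at one or both ends. The outer rings of the core are built of alpha subunits, which gate the entrance, and the inner rings of beta subunits, some of which cut peptide bonds. The cap holds a base with a ring of ATPases that unfold the substrate, and a lid that removes the ubiquitin chain. Chaperones that are not part of the finished particle guide its assembly, and in immune cells or after interferon the catalytic subunits are replaced by immunoproteasome forms.

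Library totals were between 38624292 and 46318311 counts, and the members took between 160707 and 218303 counts of a library. The line's glial markers VIM, NES, GFAP, SOX2, CD44 and S100B were detected in every library. Of the 7 glial markers CD44 rose in Sev and S100B, SOX2 and OLIG2 fell. The 6 markers of other cell types that could be tested summed to 32.5 to 33.9 CPM (counts scaled to the library total after TMM normalisation) in control and to 38.8 to 47.1 CPM in Sev, and SYT1 and PECAM1 among them rose, PECAM1 with a call that was lost without any 1 of 5 libraries (adjusted p up to 0.128). PTPRC, EPCAM, KRT5 and MOG had at most 15 counts in a library. The part of these markers in the results on the proteasome was not tested.

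Many proteasome genes had more RNA in Sev-treated cells. Of the 48 members that could be tested, 23 rose and 1, PSMG4, fell at an adjusted p under 0.05 (quasi-likelihood test of edgeR, adjusted over all features by Benjamini-Hochberg). The 23 were 47.9% of the members tested, while 22.1% of all 27514 features tested and 25% of the protein-coding ones rose. Only 1 member fell, where 21.5% of all features tested did. The changes were small. The members that rose had a median log2 fold change of 0.52, between 0.27 and 0.93, which is a median of 1.44-fold. Over all 48 the median was 0.30, against −0.0056 over all features tested. PSMG4 alone passed the study's own threshold of a log2 fold change beyond 1 with an unadjusted p under 0.05, which 11.4% of features passed upward and 12% downward.

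Most members were abundant genes, so the share called was also taken among abundant genes alone. Among protein-coding features with a mean of at least 10 CPM, 26.5% rose, and of the 47 members at that level 23 rose. In 28 members every Sev library was above every control library, in 3 every Sev library was below, and in 17 the groups overlapped. Over all features tested 28.3% lay wholly above and 28.2% wholly below. When libraries were scaled by their totals alone, the median of all features moved to −0.15 and that of the members to 0.17. A scale moves all features alike, so the members' median stayed 0.31 above that of all features by construction. That gap was 0.22 without control 1 or without a filter on low counts, and 0.17 with limma on log2(FPKM + 1) and no filter. Of the members called, 95.8% rose with TMM scaling and 85% with totals alone, where PSMB4 and PSMD4 were called lower beside PSMG4.

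Of the 24 calls, 17 held in all 15 alternative analyses. These were the rises of 12 subunits of the 19S cap, of the core subunits PSMB1, PSMB2 and PSMB7, and of PSME4, and the fall of PSMG4. The other 7 calls were lost when single libraries were left out. PSMD9 lost its call without any 1 of the 6 libraries, with adjusted p between 0.058 and 0.11. PSMA4, PSMC5 and PSMG3 lost it without control 1, control 3, Sev 1 or Sev 3, with adjusted p up to 0.126, 0.0932 and 0.133. PSMB6 lost it without control 3 or any Sev library (adjusted p up to 0.08), PSMD13 without control 1, control 3 or Sev 1 (up to 0.0899), and PSMG2 without Sev 1 (0.0533). Leaving out control 2 added PSMA7, PSMB3 and PSMD1 to the members that rose, and leaving out Sev 2 added PSMA2, PSMA6 and PSMF1, with adjusted p between 0.0175 and 0.0421.

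**Figure D1:**
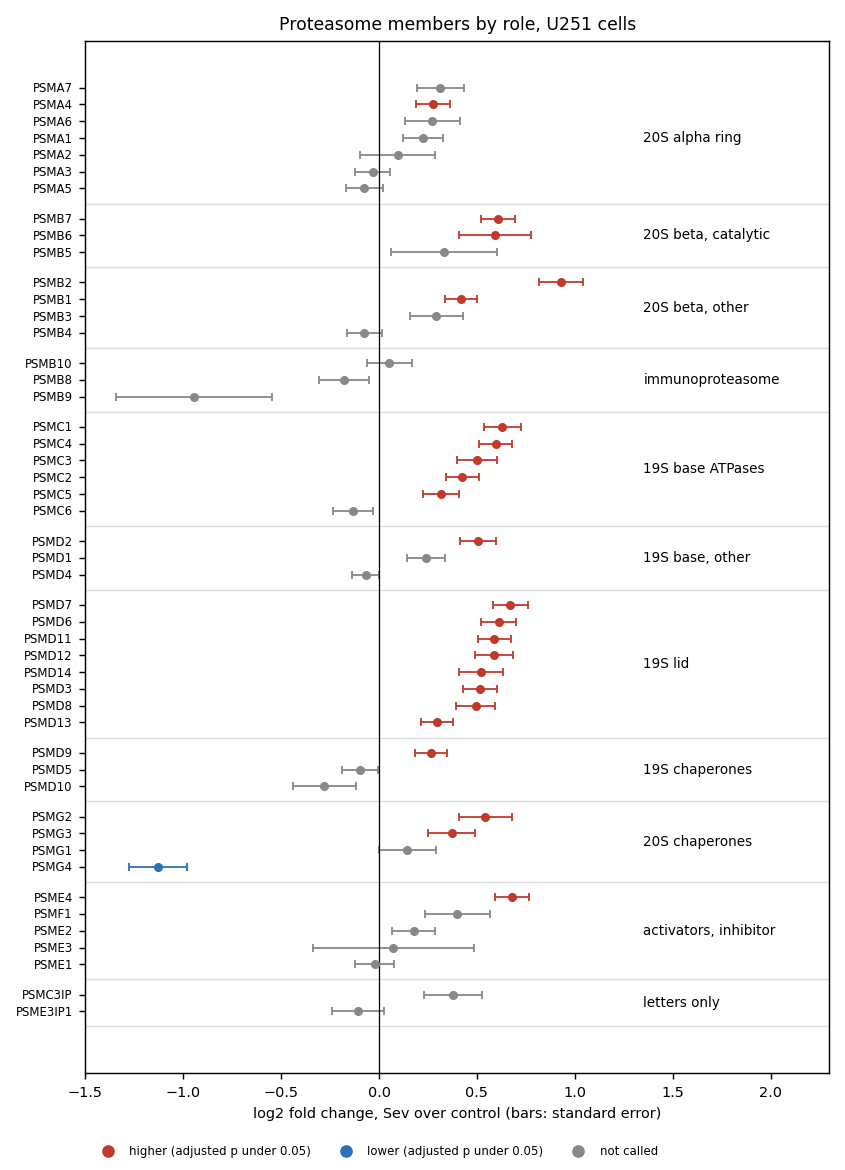
Log2 fold change of Sev over control for the 48 tested members, grouped by role, with points for the fitted value and bars for its standard error (n = 3 libraries a group). All 8 lid subunits and 5 of 6 base ATPases are red (higher), the alpha ring has 1 red point, and PSMG4 is the single blue point (lower), at −1.13.

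The 19S cap gave the largest number of changes. Of its 17 subunits 14 rose, with a median log2 fold change of 0.51. The summed level of the 17 was 2010, 2399 and 2255 CPM in control and 3075, 3033 and 3046 CPM in Sev, a ratio of 1.37. The sums of the Sev libraries lay closer together (SD 21.7 CPM) than those of the control libraries (SD 197 CPM).

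Each of the 8 lid subunits that the symbol rule takes rose, by a log2 fold change of 0.30 to 0.67 with a median of 0.55. PSMD7, a structural partner of the deubiquitinase PSMD14, had 55.2, 64.7 and 56.9 CPM in control and 95.01, 90.2 and 96.1 CPM in Sev. The groups were far apart, and the fold change was 1.59 (log2 0.67 ± 0.088 SE, adjusted p = 0.00093). PSMD14, which cuts the ubiquitin chain from the substrate, rose 1.44-fold from 93.8 ± 12.6 to 134.6 ± 8.34 CPM (SD, n = 3; adjusted p = 0.0072 by edgeR).

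The scaffold subunits of the lid moved by similar amounts. PSMD6 went from 84.6, 99.7 and 96.6 CPM to 147.6, 134.9 and 146.4 CPM (log2 0.61 ± 0.089 SE, adjusted p = 0.0014). PSMD11 went from 144.8, 154.1 and 160.8 CPM to 223, 249 and 218 CPM (log2 0.59 ± 0.084 SE, adjusted p = 0.0013). For both genes the lowest Sev library was well above the highest control library. PSMD12 had 94.6, 114.7 and 101.6 CPM in control and 161.8, 144.0 and 160.6 CPM in Sev (log2 0.59 ± 0.097 SE, adjusted p = 0.0024). PSMD3 had 189.7, 226.0 and 217.5 CPM in control and 298.9, 310.9 and 294.8 CPM in Sev (log2 0.51 ± 0.087 SE, adjusted p = 0.0026). Control 1 was the lowest control library in each of these lid genes. The remaining lid subunits PSMD8 and PSMD13 rose by 0.49 and 0.30, the latter being the smallest rise in the lid and a call that was lost without single libraries.

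In the base, 5 of 6 ATPases rose, and PSMC6 did not. PSMC1 had 57.8, 71.5 and 63.4 CPM in control and 100.9, 97.6 and 99.6 CPM in Sev, a 1.55-fold rise (log2 0.63 ± 0.094 SE, adjusted p = 0.0016). PSMC4 had 83.7, 98.4 and 93.7 CPM in control and 143.7, 137.3 and 136.1 CPM in Sev, a 1.51-fold rise (log2 0.60 ± 0.085 SE, adjusted p = 0.0013). These ATPases sit in 1 hetero-hexameric ring, which needs 1 copy of each. PSMC2, PSMC3 and PSMC5 rose by 0.43, 0.50 and 0.32 on the log2 scale. PSMC6 had 36.3, 43.1 and 44.0 CPM in control and 39.5, 36.5 and 36.4 CPM in Sev, so that the groups overlapped (log2 −0.13 ± 0.10 SE, adjusted p = 0.32).

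PSMD2 is the large scaffold of the base. It had 429, 522 and 497 CPM in control and 686, 694 and 678 CPM in Sev, a 1.42-fold rise (log2 0.51 ± 0.092 SE, adjusted p = 0.0036). Its partner PSMD1 went from 173.1 ± 20.4 to 204.5 ± 4.58 CPM (SD, n = 3), with no overlap between the groups and an adjusted p of 0.079 in the edgeR fit. PSMD4, a ubiquitin receptor of the cap, had 136.9, 140.3 and 140.3 CPM in control and 135.5, 133.7 and 128.9 CPM in Sev. Each Sev value of PSMD4 lay below each control value, but the difference was small (log2 −0.068 ± 0.068 SE, adjusted p = 0.45), and it was called lower when libraries were scaled by totals alone or by FPKM.

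**Figure D2:**
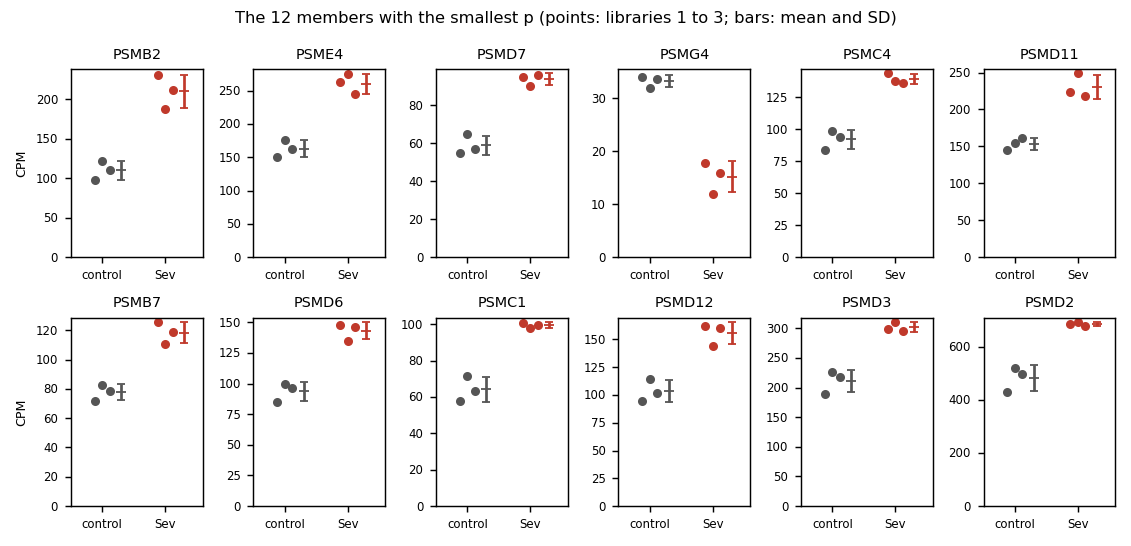
TMM-normalised CPM (vertical axis, from 0) of the 12 members with the smallest p in each of the 3 control and 3 Sev libraries, with points for libraries and bars for mean and SD. In all 12 panels the groups do not overlap, and PSMG4 is the one panel where Sev lies below control.

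The 20S core moved less evenly. Of its 14 tested subunits 5 rose, and the median log2 fold change of the 14 was 0.28. The 5 were 35.7% of those tested, where 25% of protein-coding features rose. Of these 5 calls 3 held in all alternatives. The summed level of the 14 was 1125, 1418 and 1332 CPM in control and 1677, 1511 and 1639 CPM in Sev, a ratio of 1.25. No test was made of the difference between core and cap.

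In the alpha ring PSMA4 alone rose, from 112.1 ± 7.72 to 135.7 ± 9.06 CPM (SD, n = 3; log2 0.28 ± 0.088 SE, adjusted p = 0.035 by edgeR). PSMA1 and PSMA7 also had every Sev library above every control library, with log2 fold changes of 0.23 and 0.31 and adjusted p of 0.11 and 0.065. Without control 1 these were 0.14 and 0.18. The other tested alpha subunits overlapped between the groups, with log2 fold changes from −0.075 (PSMA5) to 0.27 (PSMA6). With single libraries left out PSMA5 was between −0.142 and −0.008 and PSMA6 between 0.141 and 0.4. PSMA2 had 67.6, 69.5 and 69.7 CPM in control and 84.0, 50.01 and 86.9 CPM in Sev, with Sev 2 apart from the others. In that library 1012 counts went to ENSG00000256646, an annotated gene that overlaps PSMA2 on the same strand and had at most 11 counts in any other library. Counted together the pair had 2858, 2763 and 3391 counts in control and 3166, 2891 and 3448 counts in Sev. These counts are not scaled to the library, and control 3 had the largest total (46318311 counts), so they do not show whether the groups overlap. The pair was not tested. PSMA8, the testis form of an alpha subunit, had 0 counts in every library, which allows up to 3 counts a library by counting error alone.

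The largest rise of any member was in the beta ring. PSMB2, a beta subunit without catalytic activity whose gene lies at chr1:35599544-35641844 on the minus strand (GRCh38), had 97.7, 122.2 and 110.7 CPM in control and 230.4, 187.9 and 212.1 CPM in Sev. This was a 1.91-fold rise (log2 0.93 ± 0.11 SE, adjusted p = 0.00065). With each library left out in turn the log2 fold change of PSMB2 was between 0.84 and 1.01. PSMB1, also not catalytic, rose 1.34-fold from 119.1 ± 8.85 to 159.3 ± 3.77 CPM (SD, n = 3). PSMB3 and PSMB4 had log2 fold changes of 0.29 and −0.075 with adjusted p of 0.11 and 0.54. With single libraries left out PSMB3 was between 0.147 and 0.425 and PSMB4 between −0.159 and −0.024.

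Of the catalytic subunits PSMB7, which carries the trypsin-like activity, rose in Sev. It had 71.6, 82.5 and 78.9 CPM in control and 125.4, 111.0 and 118.6 CPM in Sev (log2 0.61 ± 0.088 SE, adjusted p = 0.0014). PSMB6, which carries the caspase-like activity, had 44.4, 77.1 and 69.5 CPM in control and 95.7, 93.3 and 99.1 CPM in Sev (log2 0.59 ± 0.18 SE, adjusted p = 0.032). The rise of PSMB6 was about as large as that of PSMB7 with a larger error, and control 1 lay far below the other controls. Without control 1 its log2 fold change was 0.38 (adjusted p = 0.019). PSMB5, which carries the chymotrypsin-like activity, had 36.0, 71.9 and 64.6 CPM in control and 90.9, 54.7 and 71.6 CPM in Sev, and the groups overlapped (log2 0.33 ± 0.27 SE, adjusted p = 0.35). Control 1 was again the lowest, and without it the log2 fold change of PSMB5 was 0.075.

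**Figure D3:**
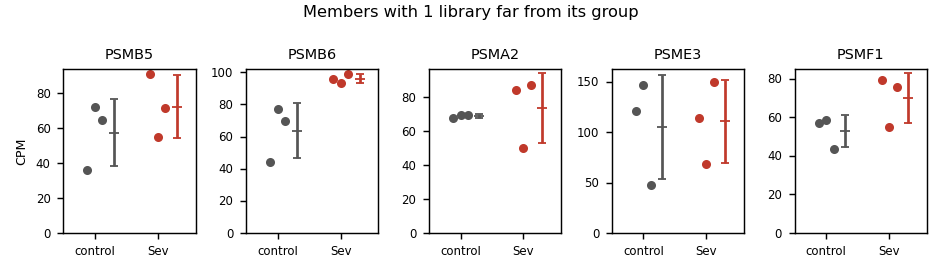
TMM-normalised CPM (vertical axis, from 0) of 5 members in which 1 or more libraries lay far from its group, with points for the 3 control and 3 Sev libraries and bars for mean and SD. Control 1 is lowest in PSMB5 and PSMB6, Sev 2 in PSMA2, Sev 2 and control 3 in PSME3 and PSMF1.

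The immunoproteasome forms were low, with 4.06, 0.272 and 5.497 FPKM in control for PSMB8, PSMB9 and PSMB10, and edgeR, DESeq2 and limma called none of them. Without adjustment the limit of 0.05 would take PSMB9 in edgeR, 1 of the 3 tested. PSMB8, the counterpart of PSMB5, had 16.3, 17.7 and 15.9 CPM in control and 13.2, 14.1 and 16.7 CPM in Sev (log2 −0.18 ± 0.13 SE, adjusted p = 0.28). PSMB9, the counterpart of PSMB6, was near the limit of detection, with 52, 42 and 50 counts in control and 27, 9 and 30 counts in Sev. Every Sev library of PSMB9 was below every control library, but its log2 fold change of −0.95 ± 0.40 (SE) had an adjusted p of 0.089. Without Sev 2 it was −0.58. PSMB9 is overlapped by PSMB8-AS1 on the same strand, which had 75.7% as many counts and a log2 fold change of −1.09 (adjusted p = 0.14), and on the opposite strand by PSMB8 and TAP1, each with many times its counts. PSMB10, the counterpart of PSMB7, had 10.1, 10.2 and 11.2 CPM in control and 11.2, 10.9 and 10.7 CPM in Sev (log2 0.051 ± 0.11 SE, adjusted p = 0.74), with a negative sign when libraries were scaled by totals alone or by FPKM. PSMB10 is overlapped on the same strand by ENSG00000261884, which had 184.6% as many counts and rose by 0.47 on the log2 scale (adjusted p = 0.021), so that reads could be split between them. PSMB11, the form found in thymus, had 5, 0 and 5 counts in control and 0, 1 and 3 counts in Sev and was not tested.

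Set against their constitutive counterparts per gene length, in FPKM, PSMB9 and PSMB10 had a lower ratio in Sev. In the second pair PSMB7 rose and PSMB10 was not called, with 5.497 FPKM in control and 5.15 FPKM in Sev. PSMB10 was 15.5%, 13.5% and 15.5% of PSMB7 in control and 9.69%, 10.7% and 9.84% in Sev. PSMB9 was 1.16%, 0.566% and 0.621% of PSMB6 in control and 0.307%, 0.0987% and 0.323% in Sev. In neither pair did the groups overlap. PSMB8 was 20.1%, 10.9% and 11.0% of PSMB5 in control and 6.43%, 11.4% and 10.4% in Sev, which overlapped. These ratios were given no test, and an exact permutation test of 3 libraries against 3 could not go below a p of 0.1. The genes around the immunoproteasome, which load peptides on MHC class I or respond to interferon, gave 1 change among 7, a fall of TAP1 from 17.0 ± 1.25 to 12.4 ± 0.90 CPM (SD, n = 3; adjusted p = 0.017 by edgeR). Of all features tested 22.1% rose and 21.5% fell. The call of TAP1 was lost without control 3 or Sev 1 (adjusted p = 0.067 and 0.065).

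The levels of subunits that are present in equal copies in the particle differed widely. Among the 14 core subunits the mean FPKM in control ran from 6.13 for PSMA6 to 91.0 for PSMB4, a ratio of 14.8, with a median of 26.1. In Sev it ran from 6.73 for PSMA6 to 82.8 for PSMB3, a ratio of 12.3. Among the 17 cap subunits it ran from 4.67 for PSMC6 to 83.0 for PSMD2 in control and from 3.86 to 106.9 for the same genes in Sev, ratios of 17.8 and 27.7. Neighbours in this order often did not differ beyond their spread, such as PSMB4 (91.0 ± 6.94 FPKM), PSMD2 (83.0 ± 6.67) and PSMB3 (74.5 ± 12.8; SD, n = 3). FPKM depends on the transcript length used by the authors, so these ratios compare genes and not protein copies.

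**Figure D4:**
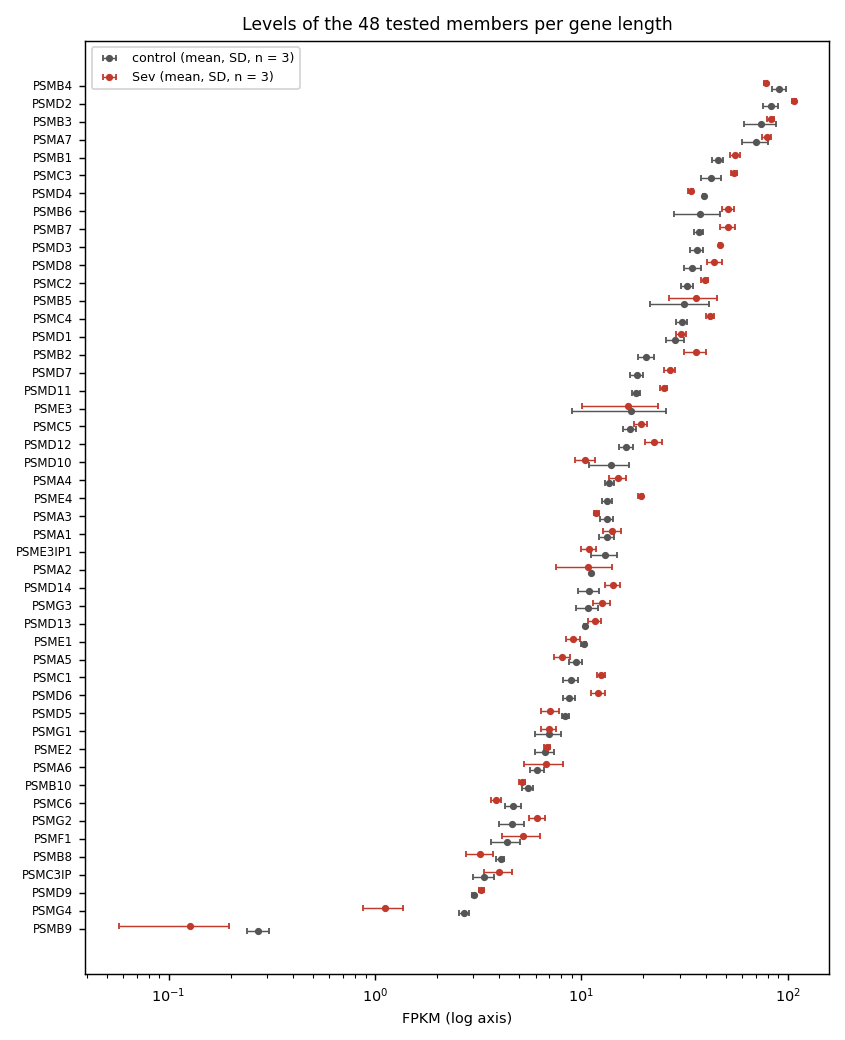
Mean FPKM with SD (n = 3 libraries; log axis) of the 48 tested members in control and Sev, ordered by the control level. Levels run from under 1 for PSMB9 to 106.9 for PSMD2 in Sev, and PSMG4 and PSMB9 show Sev left of control by the widest margin.

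The assembly chaperones moved in different directions. Of the core chaperones PSMG2 rose, with 12.5, 15.6 and 16.9 CPM in control and 22.9, 20.4 and 22.3 CPM in Sev (log2 0.54 ± 0.14 SE, adjusted p = 0.014). PSMG1, with which PSMG2 forms a dimer that starts the alpha ring, had 14.6, 20.4 and 17.9 CPM in control and 17.6, 20.8 and 20.1 CPM in Sev (log2 0.14 ± 0.15 SE, adjusted p = 0.46). The values of PSMG1 overlapped between the groups and those of PSMG2 did not, and without control 1 the log2 fold change of PSMG1 was 0.014. PSMG2 is overlapped on the opposite strand by SPIRE1, which had 363.2% as many counts and rose by 0.68 on the log2 scale (adjusted p = 0.00044).

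PSMG3 and PSMG4 form the other dimer of this pathway, and they moved in opposite directions. PSMG3 had 22.7, 28.9 and 23.3 CPM in control and 33.3, 29.9 and 33.6 CPM in Sev (log2 0.37 ± 0.12 SE, adjusted p = 0.038). PSMG4 had 34.1, 32.0 and 33.6 CPM in control and 17.8, 11.9 and 15.8 CPM in Sev, and fell to 0.457 times the control level (log2 −1.13 ± 0.15 SE, adjusted p = 0.00094). The fall of PSMG4 was the largest change of any member with all libraries in the fit, and its call held in all alternatives. Without Sev 2 it was −0.98 beside 1.01 for PSMB2, and without Sev 3 it was −1.16 beside −1.20 for PSMB9. The rise of PSMG3 was lost without several libraries, as given above.

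The gene body of PSMG4 at chr6:3231403-3303373 (GRCh38, plus strand) overlaps 2 genes on the opposite strand, and the sources do not say whether counting used strand. SLC22A23 had 112.4, 105.3 and 104.1 CPM in control and 60.9, 56.8 and 59.3 CPM in Sev, a fall of 0.86 on the log2 scale (adjusted p = 0.0002). TUBB2B had 51.8, 6.39 and 56.7 CPM in control and 3.03, 54.4 and 7.07 CPM in Sev, a pattern that PSMG4 did not follow. The library preparation marked strand, but if counting did not use it, reads of PSMG4 and SLC22A23 could not be told apart where their exons overlap. The same holds for PSMG2 and SPIRE1, and 27 members are overlapped by a gene on the opposite strand.

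The chaperones of the 19S base gave 1 change of 3, the rise of PSMD9 from 31.1 ± 1.24 to 37.4 ± 1.10 CPM (SD, n = 3; log2 0.27 ± 0.084 SE, adjusted p = 0.035 by edgeR), which was lost without any single library. PSMD9 is overlapped on the same strand by CFAP251, whose counts were 31.5% of those of PSMD9 and rose by 2.09 on the log2 scale. PSMD5 and PSMD10 had log2 fold changes of −0.097 and −0.28 with adjusted p of 0.43 and 0.19. Without control 3, the highest control library of PSMD10, its value was −0.095, and PSMD5 ranged from −0.15 to −0.043 with single libraries left out. Copies of PSMD10 elsewhere in the genome, annotated as pseudogenes, had 23.0% of the counts of gene and copies together, and those of PSMC1 had 15.3%. Over all members such copies took 0.658%.

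Of the activators that can replace the 19S cap, PSME4 alone rose. PSME4, also called PA200, had 150.3, 175.8 and 162.4 CPM in control and 262.7, 274.6 and 244.6 CPM in Sev (log2 0.68 ± 0.088 SE, adjusted p = 0.00085). PSME1 and PSME2, the subunits of the interferon-induced activator, had log2 fold changes of −0.021 and 0.18 with adjusted p of 0.88 and 0.22. PSME3, the nuclear activator, was uneven within both groups, with 121.5, 147.0 and 47.7 CPM in control and 113.9, 68.2 and 150.3 CPM in Sev (log2 0.073 ± 0.41 SE). PSMF1, which inhibits the core, had 57.0, 58.5 and 43.5 CPM in control and 79.0, 55.0 and 75.5 CPM in Sev (log2 0.40 ± 0.17 SE, adjusted p = 0.086). Its groups overlapped through Sev 2, without which the log2 fold change was 0.55 (adjusted p = 0.02).

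A pair of members matched the symbol rule by letters only and are neither subunits nor chaperones. PSMC3IP, a recombination factor, had 8.87, 11.4 and 10.7 CPM in control and 12.5, 12.4 and 15.3 CPM in Sev (log2 0.38 ± 0.15 SE, adjusted p = 0.072). PSME3IP1, a protein that binds PSME3, had 63.6, 77.9 and 57.8 CPM in control and 60.9, 68.7 and 55.1 CPM in Sev (log2 −0.11 ± 0.13 SE, adjusted p = 0.53). Neither was called, and without them 23 of 46 members rose.

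Many proteasome genes are under the transcription factor NFE2L1 (also called NRF1), which binds the antioxidant response element together with a small MAF protein. The core of that element, TGACNNNGC on either strand, was searched in RefSeq promoter windows of GRCh38.p14 from 250 bases before to 50 bases after each start, which were given for 44 of 50 members (55 windows). It was in 27.3% of the members' windows and in 13.3% of all 35116 windows. Among members that rose it was in 8 of 24 windows, and among those tested and not called in 7 of 28. GGGCGG, the GC box, was in 70.9% of the members' windows and in 45% of all, and CCAAT in 43.6% and 34.6%. A further GC-rich motif that was searched was in 12.7% of the members' windows (7 of 55) and in 5.78% of all. A higher share in the members was therefore not particular to the element of NFE2L1. A match is a description of the letters and not a bound site.

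The upstream part of 4 of these promoters is shown up to the first annotated exon, for 3 of the 8 members that rose and hold TGACNNNGC, and for PSMG4, which fell and has none in its window. In PSMA4, PSMC4, PSMC5, PSME4 and PSMG2, which also rose and hold it, no match lay in the upstream part free of annotated exons. Capitals mark TGACNNNGC or its reverse complement, and each sequence reads 5′ to 3′ on the strand of the gene (GRCh38.p14).
PSMD12, chr17:67366628-67366827, minus strand: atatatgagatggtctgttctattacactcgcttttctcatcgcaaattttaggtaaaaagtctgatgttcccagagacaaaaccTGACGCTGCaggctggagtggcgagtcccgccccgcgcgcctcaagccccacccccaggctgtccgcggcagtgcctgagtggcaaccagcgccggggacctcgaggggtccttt
PSMD3, chr17:39980557-39980796, plus strand: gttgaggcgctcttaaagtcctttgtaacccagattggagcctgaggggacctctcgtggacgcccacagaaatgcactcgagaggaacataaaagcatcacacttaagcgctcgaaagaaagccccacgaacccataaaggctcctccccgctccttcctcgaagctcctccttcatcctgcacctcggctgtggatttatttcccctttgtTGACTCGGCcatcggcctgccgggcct
PSMD9, chr12:121888540-121888730, plus strand: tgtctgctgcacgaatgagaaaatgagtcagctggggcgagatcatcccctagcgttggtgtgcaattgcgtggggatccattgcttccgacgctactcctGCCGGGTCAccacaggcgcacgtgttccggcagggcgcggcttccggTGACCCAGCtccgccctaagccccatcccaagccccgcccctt
PSMG4, chr6:3258697-3258893, plus strand: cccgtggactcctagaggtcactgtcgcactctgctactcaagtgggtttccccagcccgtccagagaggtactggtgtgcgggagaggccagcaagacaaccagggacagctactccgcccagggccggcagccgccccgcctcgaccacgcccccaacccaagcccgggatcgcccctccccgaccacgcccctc

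The match lies 165 bases before the start of PSMD12 and 37 bases before that of PSMD3, while PSMD9 holds a match on each strand, 102 and 149 bases before its start. PSMD12 and PSMD3 are lid scaffolds whose rise held in all alternatives. The RefSeq start of PSMG4 lies inside the gene body that GENCODE gives, so its window is not at the start of the longest annotated form.

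Genes that work with the proteasome moved in both directions. Of 42 tested outside the symbol rule 16 rose and 6 fell, where 22.1% and 21.5% of all features did. Of 15189 protein-coding features tested 3795 rose (25%) and 3183 fell. The lists were chosen with earlier results of these data known. FAF1 was listed at 0 in every library. Among the 22 calls 6 were lost without at least 1 library, which were those of UCHL5, ECPAS, UBQLN1, UBQLN2, UBB and TAP1, with adjusted p up to 0.153. Calls were gained by 3 genes, ZFAND5 and MAFG without control 3 and IRF1 without Sev 3, with adjusted p of 0.037, 0.042 and 0.022.

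Of 12 proteins that bind the proteasome 5 rose and 2 fell. ADRM1, the ubiquitin receptor of the cap that recruits UCHL5, rose from 86.4 ± 12.3 to 133.6 ± 6.56 CPM (SD, n = 3; log2 0.63 ± 0.11 SE, adjusted p = 0.0036 by edgeR). UCHL5 itself fell (log2 −0.36 ± 0.12 SE, adjusted p = 0.045 by edgeR), a call that was lost without single libraries. POMP, the chaperone that completes the core, rose from 49.7 ± 6.17 to 74.1 ± 2.75 CPM (log2 0.58 ± 0.10 SE, adjusted p = 0.0036). The deubiquitinase USP14 and the ubiquitin ligase UBE3C rose by 0.45 and 0.48 on the log2 scale. PAAF1, which binds the base ATPases, fell from 16.0 ± 0.90 to 5.62 ± 0.70 CPM (log2 −1.51 ± 0.14 SE, adjusted p = 0.00022). SEM1, the small subunit of the lid whose symbol the rule does not take, had 28.8, 31.0 and 28.1 CPM in control and 36.1, 33.5 and 34.8 CPM in Sev, with no overlap and an adjusted p of 0.053. With DESeq2 size factors SEM1 was called higher (adjusted p = 0.047).

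**Figure D5:**
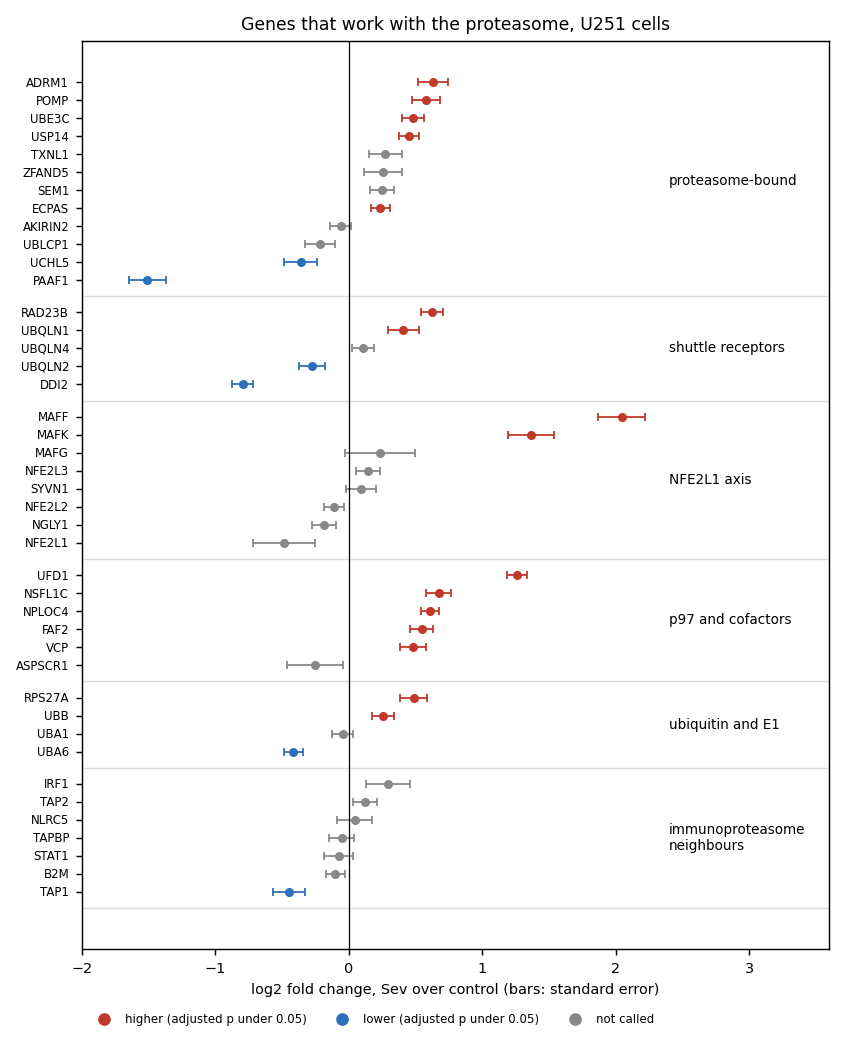
Log2 fold change of Sev over control for 42 genes that work with the proteasome, with points for the fitted value and bars for its standard error (n = 3 libraries a group). All p97 cofactors but ASPSCR1 are red (higher), MAFF is farthest right at 2.05, and PAAF1 farthest left at −1.51.

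The unfoldase p97 and its cofactors, which draw ubiquitinated proteins out of membranes and complexes for the proteasome, rose in 5 of 6 tested genes. UFD1 rose 2.395-fold from 64.9 ± 1.61 to 155.4 ± 6.11 CPM (SD, n = 3; adjusted p = 5.8e-05 by edgeR), and its partner NPLOC4 rose from 273.5 ± 9.66 to 417.0 ± 2.67 CPM. VCP, which encodes p97 itself, and the cofactors NSFL1C and FAF2 rose by 0.48, 0.67 and 0.55 on the log2 scale. Of the shuttle receptors, which carry substrates to the cap, RAD23B and UBQLN1 rose, DDI2 and UBQLN2 fell, and UBQLN4 was not called. RAD23B rose from 119.8 ± 10.0 to 184.9 ± 1.11 CPM and DDI2 fell from 73.8 ± 1.18 to 42.5 ± 2.45 CPM (log2 −0.80 ± 0.080 SE). The ubiquitin genes UBB and RPS27A rose by 0.26 and 0.49 on the log2 scale. Of the enzymes that activate ubiquitin UBA6 fell by 0.42 and UBA1 was not called (log2 −0.047).

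Among 8 genes of the NFE2L1 axis 2 rose, the small MAF genes MAFF and MAFK, where 25% of protein-coding features tested rose. MAFF rose 4.13-fold from 18.9 ± 1.81 to 77.9 ± 18.7 CPM and MAFK 2.58-fold from 57.3 ± 4.19 to 147.5 ± 37.6 CPM (SD, n = 3; adjusted p = 0.00018 and 0.00082 by edgeR). NFE2L1 had 300.1, 321.0 and 270.2 CPM in control and 239.6, 266.5 and 131.6 CPM in Sev, with Sev 3 far below the rest (log2 −0.48 ± 0.23 SE, adjusted p = 0.13). The values of NFE2L1 in Sev lay below all control values but the difference was not called, and without Sev 3 it was −0.23. It was called lower with totals alone (adjusted p = 0.041) and with limma on log2(FPKM + 1) and log2(FPKM + 0.1) (0.045 and 0.049). DDI2, given above, is the protease that activates NFE2L1, and NGLY1, the glycanase of the same pathway, had a log2 fold change of −0.19 (adjusted p = 0.12). NFE2L2, NFE2L3, SYVN1 and MAFG were not called, and MAFG was called higher without control 3 (log2 0.59, adjusted p = 0.042).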

How the data were processed

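Total RNA of U251 cells was depleted of ribosomal RNA and sequenced with strand-specific adapters in 3 control and 3 Sev-treated libraries. The authors deposited raw counts per feature and FPKM for the same 61496 Ensembl identifiers, and the submitters' processing notes name bcl2fastq 2.19 and featureCounts. Those notes name build hg18, while the identifiers matched GENCODE 29, so positions are from GENCODE 29 on GRCh38 and promoter sequences from RefSeq on GRCh38.p14. Whether counting used strand is not given in the sources used here. Groups were taken from the labels, and no library duplicated another, since 49% to 66.5% of genes differed beyond sampling noise within groups.

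Counts were filtered by filterByExpr, normalised by TMM (factors 0.918 to 1.08) and tested with the quasi-likelihood test of edgeR 4.0.16 in R 4.3.3, with no covariate and Benjamini-Hochberg adjustment over 27514 features. Called means an adjusted p under 0.05. A standard error is the size of the log2 fold change over the root of its F statistic. CPM hold no prior count. Levels between genes use the deposited FPKM. Sequencing depth limits only genes of few counts, and intervals from counts of 0 cover counting error only. The tests were tried on simulated data first.

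The alternatives were DESeq2 1.42.0 (size factors, Wald test), totals alone, no filter, at least 10 counts in every library, limma 3.58.1 on log2(FPKM + 1) and log2(FPKM + 0.1) with FPKM of at least 0.5 in 3 libraries or no such filter, the replicate number as a block, and each library left out. The background of protein-coding features with at least 10 CPM was added after the data were seen.

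Members, roles and partner lists were chosen with earlier results of these data known. Members named with every library's value were the 12 of smallest p, those past the study's threshold, PSMB5 to PSMB10, PSMG1 to PSMG4, PSMF1 and those matching by letters only. PSMD4, PSMC6, PSMA2 and PSME3 were added after their values were seen. Partners named were the 12 of smallest p with NFE2L1, POMP, ADRM1 and SEM1, and others were named for a count or after their values were seen. Some genes of the partner lists are not reported here.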

Additional observations from a re-analysis of the deposited data

How the results depend on the processing

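The count of members that rose was 23, and 16 to 25 with each library left out. The count that fell was 1 in each of those 6 analyses, the count past the study's threshold was 1 or 2, and the members' median log2 fold change was 0.229 to 0.394. With totals alone 17 members rose, 3 fell, 2 passed the threshold (PSMB9 and PSMG4), and the median was 0.165. With limma on log2(FPKM + 1) the values were 17, 2, 0 and 0.168, with log2(FPKM + 0.1) 17, 2, 1 and 0.176, and with log2(FPKM + 1) and no filter 16, 2, 0 and 0.164. The second member that fell in these limma fits was PSMD4. DESeq2 size factors, the Wald test of DESeq2 and the stricter count filter each gave 23 and 1, and no filter gave 18 and 1. Some members that were not called changed sign. PSMB10 was −0.091 with totals alone and −0.079, −0.092 and −0.079 in the limma fits in the order above, and with each library left out PSME3IP1 was between −0.207 and 0.013, PSME3 between −0.282 and 0.383, PSMA2 between −0.038 and 0.314, PSMA3 between −0.098 and 0.025 and PSME1 between −0.08 and 0.012. PSMG4 fell by 0.98 without Sev 2 and then did not pass the threshold, and PSMB2 passed it without control 2 or Sev 2. The same replicate number did not pair the libraries (correlations −0.0072, 0.0035 and 0.027). With the replicate number as a block 19 members rose, 1 fell and 2 passed the threshold, and NFE2L1 was called lower (adjusted p = 0.047). PSMB9 gave no value under the stricter count filter or in the filtered limma fits. The causes of these changes were not tested. The depth limited PSMB9, which had 9 to 52 counts a library.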
